A study of Canis lupus familiaris with 17 samples.

Results

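The T cell receptor complex and the signalling step next to it were described across canine soft tissue sarcomas by 8 probes of the nCounter Canine IO panel, out of 780 endogenous probes. The 8 genes were taken by probe name: the CD3 chains CD3D, CD3E, CD3G and CD247, the receptor constant chains TRAC and TRGC3, the receptor-associated adaptor TRAT1 and the kinase LCK. All 8 passed the filter on low counts, which kept 724 endogenous probes. RNA came from formalin-fixed, paraffin-embedded tumours of 17 client-owned dogs, 1 tumour a dog. In the 3 OneDose_2d tumours, fusion proteins of the cytokines IL-2 and IL-12 that bind collagen had been injected into the tumour once, 2 days before it was excised. They were 2 nerve sheath tumours (peripheral) and 1 myxosarcoma. In the 3 OneDose_8d tumours excision followed 8 days after 1 dose, in 2 dogs with a nerve sheath tumour and 1 with a perivascular wall tumour. In the 4 TwoDose_2d tumours a second dose was given on day 6 and excision followed 2 days later, on day 8, and this group held 3 nerve sheath tumours and 1 fibrosarcoma. The 7 untreated tumours were archived tissue, 3 of the nerve sheath and 4 of the perivascular wall type, so archiving and treatment cannot be told apart. Each comparison is between different dogs.

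The T cell receptor binds antigen through a variable chain pair, alpha-beta on most T cells, which see peptide on MHC molecules, and gamma-delta on others. That pair has almost no cytoplasmic part of its own and signals through the CD3 delta, epsilon, gamma and zeta chains, whose cytoplasmic tails carry tyrosine motifs. LCK, a kinase held at the coreceptors CD4 and CD8, phosphorylates these motifs, ZAP70 then docks on them, and the signal runs on through adaptors to calcium and NFAT. CD3D, CD3E and CD3G are markers of T cells, whereas CD247 and LCK are also used by NK cells, in which CD247 carries the signal of activating receptors. IL-2 drives the growth of activated T and NK cells, and IL-12 induces interferon-gamma in both. In bulk tumour RNA, more T cells and more receptor RNA per T cell cannot be told apart.

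Of the 8 genes, 6 matched a gene symbol in the RefSeq annotation of the dog genome UU_Cfam_GSD_1.0. TRAC and TRGC3 are named as on the panel. CD3G, CD3D and CD3E lie next to each other there, with no other annotated gene in the span of these 3. The deposited files name no genome build, so no coordinates are given. The dog gamma chain locus holds several similar constant genes, of which the panel has TRGC2, TRGC3 and TRGC8, and whether the probes tell them apart was not tested.

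Endogenous counts summed to 1016527 to 1752729 per tumour except in 2 libraries with low counts, OneDose_2d replicate C (126997) and TwoDose_2d replicate D (205118). Normalized counts are raw counts divided by the tumour's housekeeping level relative to the mean of the 17 tumours, and a count is called above background when it passes the mean plus 2 SD of the tumour's 8 negative controls. Housekeeping scaling also lifts counts that are background. The mean negative control lay 1.98 log2 higher in OneDose_2d than in untreated tumours after this scaling, 0.31 higher in OneDose_8d and 1.22 higher in TwoDose_2d. The median of the 724 tested genes shifted by 1.23, 0.09 and 0.63 log2 in the same comparisons, and by 0.25, -0.03 and -0.05 with TMM scaling, which centres on the bulk of the genes. Folds are therefore given with housekeeping scaling and with TMM. They are log2 values with a standard error (SE) and a p-value from edgeR's quasi-likelihood test, adjusted over the 724 probes by Benjamini-Hochberg and called under 0.05. The comparisons with untreated share the same 7 tumours.

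CD3D, CD3E, CD3G and LCK were called higher 2 days after either dose. CD247 was called after neither, and TRAC only after the second dose with housekeeping scaling. At day 2 after 1 dose, 6 of the 8 genes were called higher than in untreated tumours, where 47.8% of all tested genes were (6 of 8 with TMM, where 23.5% were). In TwoDose_2d tumours 7 of 8 were called higher, against 33.3% of all tested genes (6 of 8 with TMM, against 21.5%). These counts include TRGC3, whose test against untreated tumours is not informative for the reason given beside its values. Without it, 5 of 7 were called in OneDose_2d (5 with TMM) and 6 of 7 in TwoDose_2d (5 with TMM). Each of these counts still includes TRAT1, which passed the filter only with the help of treated tumours. At day 8 after 1 dose 0 of 8 were called, and 0% of all tested genes. The median fold of the 8 genes was 2.44 log2 in OneDose_2d, 0.90 in OneDose_8d and 2.37 in TwoDose_2d, beside 1.23, 0.09 and 0.63 for all tested genes. With TMM these medians were 1.46, 0.77 and 1.62, beside 0.25, -0.03 and -0.05. Without TRGC3 the medians with housekeeping scaling were 2.39, 0.85 and 2.29.

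**Figure D1:**
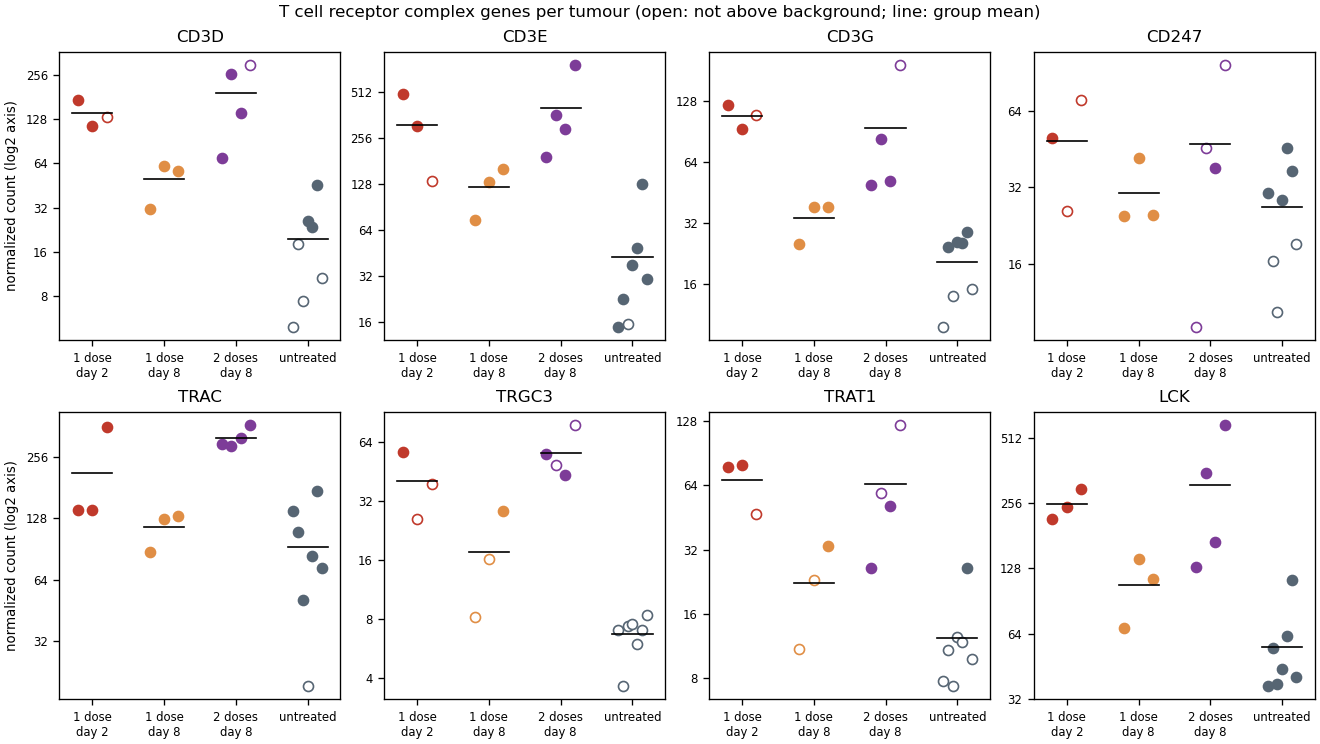
Normalized count of each gene in each tumour (log2 axis), with 1 dose at day 2, 1 dose at day 8 and 2 doses at day 8 left of untreated; filled points are above the tumour's background, open points are not, and the line is the group mean. CD3E, CD3D and LCK of all OneDose_2d and TwoDose_2d tumours lie above all untreated ones, TRGC3 is open in all 7 untreated tumours, and the highest TwoDose_2d point is replicate D for every gene.

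CD3E, the epsilon chain that pairs with CD3D and with CD3G, was above background in 2 of 3 OneDose_2d, 3 of 3 OneDose_8d, 4 of 4 TwoDose_2d and 6 of 7 untreated tumours. Its normalized counts were 498, 305 and 133 in OneDose_2d replicates A, B and C, 74.4, 130.3 and 159.9 in OneDose_8d replicates A, B and C, and 192, 360.4, 291 and 764 in TwoDose_2d replicates A to D, against a lowest, median and highest of 14.8, 30.5 and 127 in untreated tumours. All tumours taken 2 days after a dose lay above all untreated tumours, and the OneDose_8d tumours overlapped with the highest untreated one, replicate F. The rise of CD3E was 2.89 log2 in OneDose_2d (SE 0.60, edgeR adjusted p = 0.0014, TMM 1.92) and 3.23 in TwoDose_2d (SE 0.58, adjusted p = 0.000445, TMM 2.52). OneDose_2d replicate C, with 17 raw counts, was not above its background, and without both low-count libraries the rises were 3.24 and 2.73 log2.

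CD3D, the delta chain that pairs with CD3E, had normalized counts of 173, 115 and 133 in OneDose_2d, 31.4, 61.7 and 57.0 in OneDose_8d and 69.2, 261, 141 and 299 in TwoDose_2d, against 4.94 to 45.7 with a median of 18.1 in untreated tumours. The tumours taken 2 days after a dose again stood wholly above the untreated ones. CD3D rose by 2.85 log2 in OneDose_2d (SE 0.56, adjusted p = 0.00098, TMM 1.93) and by 3.28 in TwoDose_2d (SE 0.53, adjusted p = 0.00024, TMM 2.59). Of the 7 untreated tumours 3 were above background for CD3D, and neither low-count library was, and without those 2 libraries it rose by 2.89 and 3.01 log2.

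CD3G, the gamma chain that also pairs with CD3E, had 123, 93.0 and 109 normalized counts in OneDose_2d, 25.2, 38.6 and 38.6 in OneDose_8d and 49.6, 83.2, 51.7 and 193 in TwoDose_2d, against 9.87 to 29.0 with a median of 24.4 in untreated tumours. CD3G rose by 2.39 log2 in OneDose_2d (SE 0.43, adjusted p = 0.000494, TMM 1.43) and by 2.12 in TwoDose_2d (SE 0.41, adjusted p = 0.000733, TMM 1.39). In both groups the tumours did not overlap with untreated ones, as for CD3D and CD3E. CD3G was above background in 2 of 3 OneDose_2d, 3 of 3 OneDose_8d, 3 of 4 TwoDose_2d and 4 of 7 untreated tumours. Neither low-count library was above background for CD3G, and without those 2 libraries it rose by 2.39 and 1.57 log2.

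CD247, the zeta chain, did not follow the other CD3 chains past the test. Its normalized counts were 50.1, 25.8 and 70.3 in OneDose_2d, 24.6, 41.6 and 24.8 in OneDose_8d and 9.02, 45.7, 38.2 and 96.6 in TwoDose_2d, against 10.3 to 45.5 with a median of 28.3 in untreated tumours. All 3 treated groups overlapped with the untreated one. Its fold was 0.82 log2 in OneDose_2d (SE 0.57, adjusted p = 0.242 in edgeR) and 0.69 in TwoDose_2d (SE 0.53, adjusted p = 0.347). Both changed sign with TMM, to -0.19 and -0.05. CD247 was above background in 1 of 3 OneDose_2d, 3 of 3 OneDose_8d, 1 of 4 TwoDose_2d and 4 of 7 untreated tumours.

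TRAC, the constant part of the alpha chain, was higher after the second dose with housekeeping scaling. It had 139.9, 141 and 359 normalized counts in OneDose_2d, 87.3, 127 and 131 in OneDose_8d and 297, 290.3, 316 and 369 in TwoDose_2d, against 19.2 to 175 with a median of 83.1 in untreated tumours. The 4 TwoDose_2d tumours lay close together and above every untreated tumour, while OneDose_2d replicates A and B lay among the untreated ones. TwoDose_2d replicate D had 42 raw counts over a background threshold of 38.5, so its place rests largely on scaled background. TRAC rose by 1.77 log2 in TwoDose_2d (SE 0.45, adjusted p = 0.0055), a call that TMM ended (1.13, adjusted p = 0.085). In OneDose_2d its fold of 1.18 (SE 0.49, adjusted p = 0.0562 in edgeR) did not pass, and was 0.60 without both low-count libraries. The paired chain TRBC, which is no member of the set, was at 684 ± 108 normalized counts in OneDose_2d (SD, n = 3), 348 ± 85.4 in OneDose_8d (n = 3) and 1118 ± 724 in TwoDose_2d (n = 4), against 169.9 ± 136 in untreated tumours (n = 7). TRBC rose in OneDose_2d (2.01 log2, SE 0.53, adjusted p = 0.00574 in edgeR), a call that TMM ended (1.05, adjusted p = 0.0623), and in TwoDose_2d (2.71 log2, SE 0.50, adjusted p = 0.000545, TMM 1.93).

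TRGC3, a constant part of the gamma chain, was above background in 1 of 3 OneDose_2d, 1 of 3 OneDose_8d, 2 of 4 TwoDose_2d and 0 of 7 untreated tumours. It passed the filter on low counts through these 4 treated tumours alone, so that a difference from untreated tumours was built into its selection. Raw counts were 33, 15 and 5 in OneDose_2d, 12, 21 and 31 in OneDose_8d and 74, 30, 55 and 9 in TwoDose_2d, against 4 to 11 with a median of 9 in untreated tumours. The counts that stood clear of background were those of OneDose_2d replicate A, OneDose_8d replicate C and TwoDose_2d replicates A and C.

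The mean normalized counts of TRGC3 were 40.6 ± 15.7 in OneDose_2d (SD, n = 3), 17.6 ± 10.2 in OneDose_8d (n = 3) and 56.8 ± 15.6 in TwoDose_2d (n = 4), against 6.69 ± 1.54 in untreated tumours (n = 7). These means hold tumours whose counts were not above their own background, which housekeeping scaling lifts. The normalized threshold was 162.8 in OneDose_2d replicate C and 338 in TwoDose_2d replicate D, against 12.6 to 23.7 in untreated tumours. No fold or p of TRGC3 against untreated tumours is therefore given. TRGC2, another gamma constant probe outside the set, named after its values were seen, did not pass: 115 ± 97.8 normalized counts in OneDose_2d (SD, n = 3; fold 1.20 log2, SE 0.49, adjusted p = 0.0502 in edgeR) and 85.3 ± 41.5 in TwoDose_2d (n = 4; 0.79, SE 0.45, adjusted p = 0.196), against 48.0 ± 17.1 in untreated tumours (n = 7).

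TRAT1, an adaptor that binds the receptor complex, also lay near background. It had 77.7, 79.2 and 46.9 normalized counts in OneDose_2d, 10.9, 23.1 and 33.1 in OneDose_8d and 26.3, 58.7, 50.9 and 123 in TwoDose_2d, against 7.34 to 26.4 with a median of 10.9 in untreated tumours. All 3 OneDose_2d tumours lay above the untreated ones, and TwoDose_2d replicate A lay just under the highest untreated tumour. TRAT1 reached the 3 tumours of the filter on low counts only with treated ones, so a difference from untreated tumours was in part built into its selection. Its fitted fold is therefore given without a p. It was 2.48 log2 in OneDose_2d (SE 0.47, TMM 1.50) and 2.29 in TwoDose_2d (SE 0.45, TMM 1.59). After subtraction of the mean negative control the fold of TRAT1 in TwoDose_2d was 3.19 log2 with a wider SE of 1.20. TRAT1 was above background in 2 of 3 OneDose_2d, 1 of 3 OneDose_8d, 2 of 4 TwoDose_2d and 1 of 7 untreated tumours. These folds are thus taken over counts that were mostly background, in comparisons where the mean negative control itself lay 1.98 and 1.22 log2 higher.

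LCK was the only one of the 8 genes above background in all 17 tumours. Its normalized counts were 216, 245 and 297 in OneDose_2d, 68.2, 141 and 114 in OneDose_8d and 129, 354, 169 and 588 in TwoDose_2d, against 36.7 to 113 with a median of 44.2 in untreated tumours. The groups taken 2 days after a dose did not overlap with untreated tumours. LCK rose by 2.18 log2 in OneDose_2d (SE 0.45, adjusted p = 0.00143, TMM 1.21) and by 2.46 in TwoDose_2d (SE 0.43, adjusted p = 0.000385, TMM 1.65).

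**Figure D2:**
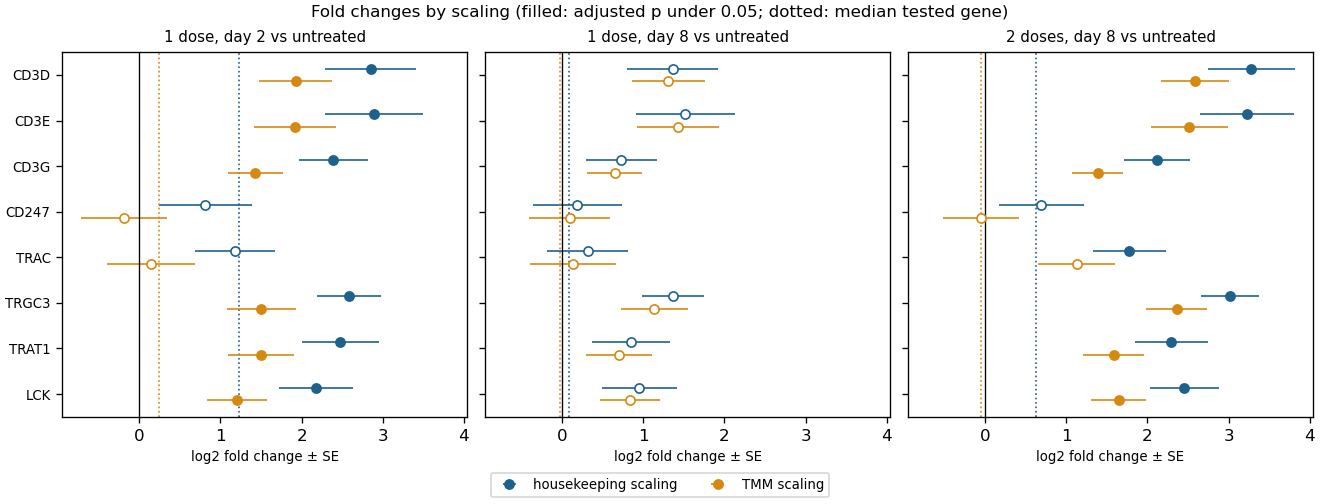
Log2 fold change of each gene against untreated tumours with its SE, under housekeeping and TMM scaling, in 3 panels for 1 dose at day 2, 1 dose at day 8 and 2 doses at day 8. Filled points have an adjusted p under 0.05, and dotted lines mark the median tested gene. TRGC3 and TRAT1 are shown at their fitted values, which rest on untreated counts all (TRGC3) or mostly (TRAT1) at background. CD247 changes sign between the scalings at day 2 and after 2 doses, and 0 of 8 points are filled at day 8 after 1 dose.

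In OneDose_2d, 6 of the 8 genes (CD3D, CD3E, CD3G, TRGC3, TRAT1 and LCK) had every tumour above every untreated tumour, as did 30.9% of all tested genes. In TwoDose_2d, 6 of 8 (CD3D, CD3E, CD3G, TRAC, TRGC3 and LCK) did, against 11.3% of all tested genes, and in OneDose_8d 0 of 8, against 2.62%. Of the 6 genes, 5 were not above background in OneDose_2d replicate C (LCK was), and 3 were not in TwoDose_2d replicate D (CD3D, CD3G and TRGC3), so those positions rest on scaled background counts. With each count as a share of the tumour's endogenous total in place of housekeeping scaling, they were 6, 6 and 0 of 8 in OneDose_2d, TwoDose_2d and OneDose_8d, where 20%, 9.67% and 2.35% of all tested genes were above. On both scales the counts of 6 include TRGC3, and in OneDose_2d also TRAT1. A difference from untreated tumours was built into the selection of TRGC3, and in part into that of TRAT1. After subtraction of the mean negative control 6 of 8 were called in OneDose_2d, against 29.8% of all tested genes, and 6 of 8 in TwoDose_2d, against 26.7% (5 of 7 in each without TRGC3). TRAT1 was among those called in OneDose_2d but not in TwoDose_2d.

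Sarcoma types were unevenly spread over the groups. Among peripheral nerve sheath tumours alone, 2 of 8 genes were called in OneDose_2d (2 tumours against 3 untreated), where 5.25% of all 705 tested genes were. These were CD3G (2.34 log2, adjusted p = 0.0428 in edgeR) and TRGC3, which was at background in every untreated tumour. In TwoDose_2d (3 tumours against 3) 0 of 8 and 0% of all tested genes were called. An unadjusted p under 0.05 was found for 7 of 8 (6 of 7 without TRGC3, TRAT1 among them), as for 21% of all tested genes. CD3E was 2.22 log2 higher (SE 0.78, adjusted p = 0.142) and CD3D 2.65 (SE 0.72, adjusted p = 0.102) in the TwoDose_2d nerve sheath tumours. Among the 7 untreated tumours, 0 of the 6 genes tested there differed between perivascular wall and nerve sheath tumours, and 0% of 676 tested genes did. Their folds, wall over nerve sheath, lay between -1.05 log2 (CD3E, SE 0.72) and 0.24 (CD247, SE 0.52).

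How far the genes stood over background differed from tumour to tumour. All 8 were above background in OneDose_2d replicate A, OneDose_8d replicate C and TwoDose_2d replicate C, and 2 of 8 in OneDose_2d replicate C and 3 of 8 in TwoDose_2d replicate D, the low-count libraries. In untreated tumours the number was between 2 (replicate C) and 7 (replicate F). TwoDose_2d replicate D, the fibrosarcoma, had the highest level of all 8 genes in its group with housekeeping scaling, and of 7 as a share of endogenous counts. For the genes not above background in that library, this position rests on scaled background counts. OneDose_8d replicate A, the perivascular wall tumour, had the lowest level of all 8 in its group (7 as a share of endogenous counts). Untreated replicate F had the highest level of 6 of 8 in its group (5 as a share).

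**Figure D3:**
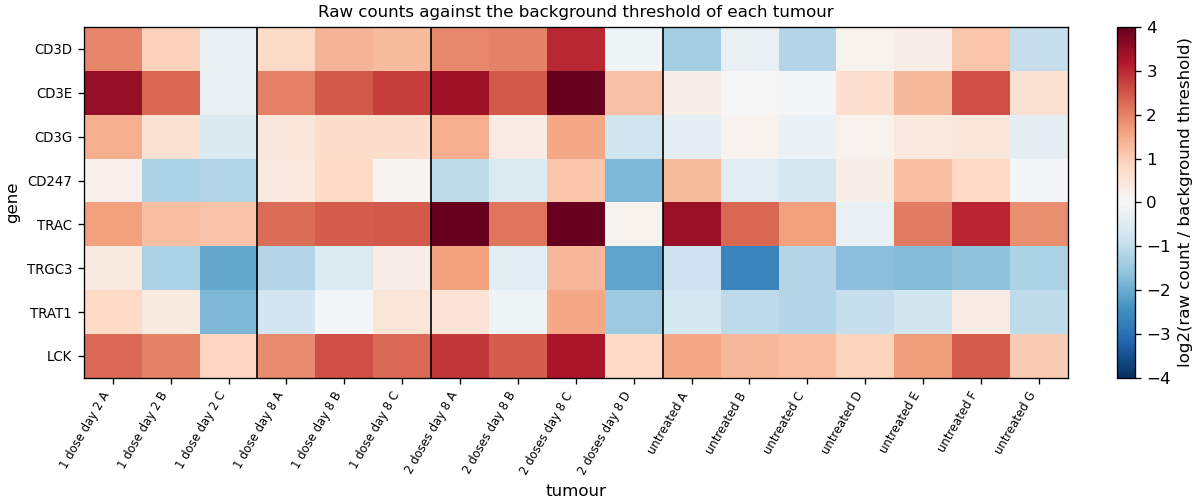
Raw count over the background threshold of the same tumour, as log2, for each gene (rows) and tumour (columns, from 1 dose at day 2 on the left to untreated on the right); red is above the threshold and blue below it. TRGC3 is blue in all 7 untreated tumours, LCK is red throughout, and most genes are blue in the low-count libraries (1 dose day 2 replicate C and 2 doses day 8 replicate D).

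At day 8 after 1 dose the group mean of each of the 8 genes lay below those of OneDose_2d and TwoDose_2d and above that of untreated tumours, without passing the test. With housekeeping scaling 37.3% of all tested genes had this order of means, and as shares of endogenous counts 8 of 8 members and 29.7% of all tested genes did. With TMM the fold of CD247 ran the other way, at 0.28 for OneDose_8d against OneDose_2d and -0.14 for TwoDose_2d against OneDose_8d. CD3E was at 122 ± 43.4 normalized counts (SD, n = 3), against 42.4 ± 39.4 in untreated tumours (n = 7), a fold of 1.52 log2 (SE 0.60, adjusted p = 0.984 in edgeR). CD3D had a fold of 1.36 (SE 0.56, adjusted p = 0.984) and LCK of 0.95 (SE 0.46, adjusted p = 0.984), while CD247 (0.19, SE 0.55) and TRAC (0.31, SE 0.50) lay closer to untreated. No gene of the panel was called by edgeR at this time. An unadjusted p under 0.05 was found for 33 of 724 genes and 3 of the 8 members (2 of 7 without TRGC3). DESeq2 called 1 of 724 genes (49 unadjusted) and limma on the deposited values 0 (35 unadjusted).

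Setting time and dose against each other, OneDose_8d tumours were lower than OneDose_2d tumours for 1 of 8 genes, against 19.2% of all tested genes called lower. That gene was CD3G, with 34.1 ± 7.69 normalized counts in OneDose_8d and 108 ± 14.9 in OneDose_2d (SD, n = 3 each; -1.66 log2, SE 0.54, adjusted p = 0.0449 in edgeR). TMM ended the call (-0.78, adjusted p = 0.184), as did leaving out any 1 of the OneDose_2d tumours (CD3G adjusted p 0.0598 to 0.0756) or OneDose_8d tumours (0.0796 to 0.178), and untreated replicate E, F or G (up to 0.0555). Without both low-count libraries CD3G (adjusted p = 0.0347) and TRAT1 (-1.81 log2, adjusted p = 0.0443) were called. In 5 of 8 genes (CD3D, CD3G, TRAC, TRAT1 and LCK) every OneDose_8d tumour lay below every OneDose_2d tumour, as in 38% of all tested genes.

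TwoDose_2d tumours, taken on the same day after the first dose as OneDose_8d tumours, were higher for 1 of 8 genes, against 9.39% of all tested genes. That gene was TRGC3, with 56.8 ± 15.6 normalized counts in TwoDose_2d (SD, n = 4) and 17.6 ± 10.2 in OneDose_8d (n = 3; 1.65 log2, SE 0.45, adjusted p = 0.0348 in edgeR). It was above background in 2 of 4 and 1 of 3 of these tumours, so the difference is mostly one between background counts. TRGC3 passed the filter on low counts partly through those TwoDose_2d tumours, so its selection leans on the higher group. Without TRGC3, 0 of 7 members were called. The call was lost with TMM (1.22, adjusted p = 0.121), without both low-count libraries (1.49, adjusted p = 0.0846), and without any 1 OneDose_8d tumour or TwoDose_2d replicate B or D. CD3D was 1.92 log2 higher (SE 0.69, adjusted p = 0.0707), and 7 of 8 members had an unadjusted p under 0.05, as did 32.7% of all tested genes. DESeq2 called 7 of 8, and 27.2% of all tested genes higher. Every TwoDose_2d tumour lay above every OneDose_8d tumour in 5 of 8 genes (CD3D, CD3E, CD3G, TRAC and TRGC3), as in 15.9% of all tested genes.

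Between TwoDose_2d and OneDose_2d tumours, both taken 2 days after their last dose, edgeR called 0 of 8 members and 0% of the 724 tested genes (88 unadjusted, 0 of them members). DESeq2 called 28 of the 724 and limma on the deposited values 1. Member folds lay between -0.27 log2 (CD3G, SE 0.50) and 0.60 (TRAC, SE 0.57). With 3 and 4 tumours these errors leave room for differences of more than 1 log2 either way, and the tumours are not shown to be alike.

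Ratios of 2 probes within a tumour do not depend on the scaling, but do depend on how counts near background are handled. The difference in TRGC3 over TRAC in TwoDose_2d was 0.93 log2, 0.39 with 10 added to each count and 2.70 after background subtraction. In all, 4 ratios were compared with untreated tumours in 3 groups by exact two-sided permutation tests, adjusted over the 12. The ratio of CD247 to CD3E was lower in TwoDose_2d tumours, at -4.30, -2.94, -2.90 and -2.87 log2 in replicates A to D, against a range of -1.76 to 1.00 with a median of -0.45 in untreated tumours. The groups did not overlap (difference -2.84, exact permutation p = 0.00303, the smallest that 4 against 7 allow, adjusted p = 0.0364). CD247 was above background in TwoDose_2d replicate C alone, so in the other 3 the ratio sets a background count over CD3E. This left too few TwoDose_2d tumours to compare on tumours with both probes above background. On such tumours the OneDose_8d difference was -1.64 (3 against 4, exact permutation, adjusted p = 0.2). The TwoDose_2d difference stayed in direction but not in call without both low-count libraries (-2.96, exact permutation, adjusted p = 0.0667, where 3 against 7 allow no p under 0.00833) and among nerve sheath tumours (-2.42, exact permutation, adjusted p = 0.48, where 3 against 3 allow no p under 0.1). In OneDose_2d (-2.11, exact permutation, adjusted p = 0.0667) and OneDose_8d (-1.53, adjusted p = 0.075) the difference did not pass.

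The other 3 ratios passed in 0 of 9 tests. The difference from untreated tumours in LCK over CD3E was -0.79 log2 in OneDose_2d, -0.82 in OneDose_8d and -1.09 in TwoDose_2d (exact permutation, adjusted p = 0.245, 0.08 and 0.0667). CD3E over PTPRC, which is CD45 and marks all leukocytes, was -2.24 ± 0.22 in OneDose_2d (SD, n = 3), -1.93 ± 0.28 in OneDose_8d (n = 3) and -2.03 ± 0.76 in TwoDose_2d (n = 4), against -2.64 ± 1.03 in untreated tumours (n = 7), within the untreated spread. TRGC3 over TRAC was -2.20 ± 0.86 in OneDose_2d, -2.80 ± 0.58 in OneDose_8d and -2.47 ± 0.30 in TwoDose_2d, against -3.40 ± 1.19 in untreated tumours, where TRGC3 was at background.

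**Figure D4:**
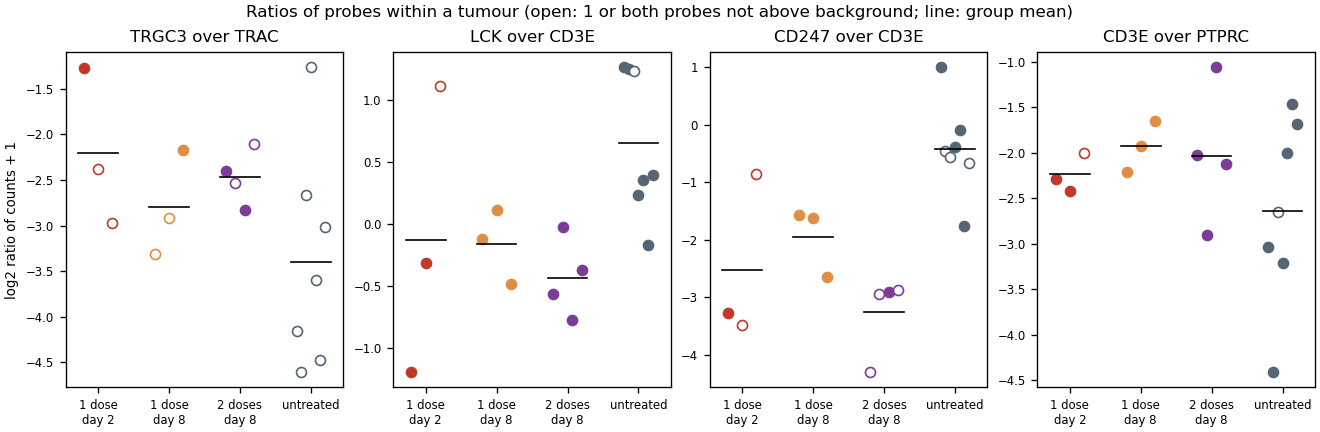
Log2 ratio of raw counts (each plus 1) for 4 pairs of probes in each tumour, with the treated groups left of untreated; open points have 1 or both probes not above background, and the line is the group mean. The 4 TwoDose_2d tumours lie between -4.30 and -2.87 for CD247 over CD3E, below the 7 untreated tumours (-1.76 to 1.00), and 3 of the 4 points are open.

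Among the 7 untreated tumours the members followed CD3E unequally. Over log2 normalized counts, Pearson's r with CD3E was 0.90 for CD3D, 0.77 for CD3G, 0.96 for TRAT1 and 0.91 for LCK, and Spearman's rho was 0.93, 0.93, 0.89 and 0.89. For CD247 r was 0.64, for TRAC 0.21 and for TRGC3 0.10, the last a set of background counts. Without replicates A and F, the lowest and highest for CD3E, r over 5 tumours was 0.79 for CD3D, 0.66 for CD3G, 0.86 for TRAT1, 0.59 for LCK, 0.98 for CD247 and -0.13 for TRAC. These 7 values are a description, since the tumours share their scaling and many counts lay near background.

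Over all 17 tumours, after subtraction of each group's mean, tested genes outside the set whose log2 levels were among the most like the mean of the 8 were CXCR6 (r = 0.92), ICOS (0.92), TRBC (0.91), GZMK (0.90) and KLRD1 (0.89). The median of the 716 other tested genes was 0.39, and all genes of a tumour share its scaling factor. CXCR6 is a chemokine receptor, ICOS a costimulatory receptor, GZMK a granule protease and KLRD1, CD94, a receptor of NK and some T cells. Within the set, each gene was set against the mean of the other members. LCK (0.91) and TRAT1 (0.89) lay closest to that mean, and CD247 (0.69), TRGC3 (0.31) and TRAC (0.17) farthest.

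Genes downstream of the receptor were counted as a list. Of 29 signalling genes listed, 15 were on the panel and 14 were tested. ZAP70 was on the panel and did not pass the filter on low counts. In OneDose_2d 6 of 14 were called higher (42.9%, where 47.8% of all tested genes were) and 0 lower, with a median of 1.04 log2 beside 1.23 for all tested genes. With TMM 4 were higher (28.6%, against 23.5%) and 2, NFATC1 (-1.79) and PLCG1 (-1.18), lower, where 15.7% of all tested genes were lower. In TwoDose_2d 6 of 14 were called higher (42.9%, against 33.3% of all tested genes) and 5 with TMM (35.7%, against 21.5%), with a median of 0.83 beside 0.63, and in OneDose_8d 0 of 14.

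SH2D1A, the adaptor SAP of T and NK cells, had the smallest adjusted p of the 14 in both. It was at 252 ± 34.3 normalized counts in OneDose_2d (SD, n = 3) and 222 ± 173 in TwoDose_2d (n = 4), against 19.7 ± 12.9 in untreated tumours (n = 7), with rises of 3.67 log2 (SE 0.56, edgeR adjusted p = 0.000131) and 3.46 (SE 0.53, adjusted p = 0.000187). PTPRC, the phosphatase CD45 that opens LCK for activity, rose by 2.64 log2 in OneDose_2d and 2.92 in TwoDose_2d. SYK, the ZAP70 relative of B and myeloid cells, rose by 2.47 and 2.74. TXK, a TEC-family kinase, rose by 1.81 in OneDose_2d (0.81 with TMM, adjusted p = 0.145 in edgeR) and by 2.73 in TwoDose_2d. BCL10, a signalling adaptor to NF-kappaB, rose by 0.80 in OneDose_2d with housekeeping scaling and was at -0.20 with TMM (adjusted p = 0.64). PIK3CD, a leukocyte phosphoinositide kinase, rose by 1.73 in TwoDose_2d, a call that TMM ended (0.79, adjusted p = 0.176). SH2D1A was also lower in OneDose_8d than in OneDose_2d (-2.76 log2, SE 0.73, adjusted p = 0.0223 in edgeR, TMM -1.89, adjusted p = 0.0428), and higher in TwoDose_2d than in OneDose_8d (2.55 log2, SE 0.70, adjusted p = 0.0348, TMM 1.79).

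Markers of other leukocytes were counted beside the 8 genes, where 47.8% of all tested genes were called higher in OneDose_2d and 33.3% in TwoDose_2d. Of 11 T cell markers, which include CD3D, CD3E and CD3G, 9 were called higher in OneDose_2d and 10 in TwoDose_2d. Their summed normalized counts ran from 1988 to 2502 in OneDose_2d, 577 to 760 in OneDose_8d and 1150 to 5424 in TwoDose_2d, against 181 to 801 in untreated tumours. Of 9 NK cell markers 7 were called higher and 1, NCAM1, lower in OneDose_2d, and 6 higher in TwoDose_2d. Their sums overlapped between groups, at 968 to 4912 in OneDose_2d, 945 to 1472 in OneDose_8d and 1515 to 2362 in TwoDose_2d, against 685 to 1660 in untreated tumours. NCR1, a receptor of NK cells with the largest fold of the 9, was higher by 3.87 log2 in OneDose_2d (SE 0.63, edgeR adjusted p = 0.000247) and 3.66 in TwoDose_2d (SE 0.60, adjusted p = 0.000257). KLRK1 was called in neither group (0.91 and 0.06 log2). In TwoDose_2d, NCR3 (0.04) and NCAM1 (-1.08) were not called. Of 6 B and plasma cell markers tested (8 listed), 6 were called higher in OneDose_2d and 3 in TwoDose_2d, with sums of 730 to 1054 in OneDose_2d, 164 to 281 in OneDose_8d and 175 to 1036 in TwoDose_2d, against 99.4 to 336 in untreated tumours. The highest NK and B cell sums in OneDose_2d and TwoDose_2d were those of the low-count libraries, replicates C and D. Of 9 NK cell markers 5 and 2 were above background there. Of the 8 B and plasma cell markers 2 and 1 were, and by group 2 to 5 in OneDose_2d, 1 to 4 in TwoDose_2d and 1 to 6 in untreated tumours. Marker calls and sums are given with housekeeping scaling only. Of 6 macrophage markers 3 and 1 were called higher, with sums of 4459 to 13249 in OneDose_2d, 5768 to 6527 in OneDose_8d and 4107 to 10564 in TwoDose_2d, against 1584 to 10743 in untreated tumours. In OneDose_8d 0 markers of each list were called. Of the nerve sheath and perivascular wall lists, 3 of 6 and 2 of 6 markers were on the panel, too few to check the sarcoma types. The part of NK cells in the levels of LCK and CD247 was not tested.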

How the data were processed

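RNA from formalin-fixed tissue scrolls was hybridized to the panel by the authors, per the labels' protocols. Each tumour's raw file, as deposited, lists whole-number counts for every probe. A normalized signal for the same tumours stands in the value table that the authors deposited. It was made with nSolver per the series' design text, its steps and software version are not stated there, and it served as an alternative. A further table, with 17 value columns, was not used.

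Raw endogenous counts were fitted in edgeR 4.0.16 (R 4.3.3, quasi-likelihood F-test, robust), with the geometric mean of 20 housekeeping probes as library size and the 4 groups in 1 model. Probes above their negative controls (mean plus 2 SD) in 3 or more tumours were kept: 724 stayed and 56 left, and 676 stayed in a model of the 7 untreated tumours. The SE is the absolute log2 fold change over the square root of F. P-values measure the spread between tumours. Ratios used log2(count + 1) and scipy 1.17.1. Alternatives used DESeq2 1.42.0, limma 3.58.1 on log2(signal + 1), TMM, background subtraction and omitted tumours. The edgeR code was tested on simulated counts.

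All 8 members are named throughout, with the 6 signalling genes of smallest adjusted p in a comparison and the 6 genes most like the members. An item that these rules also name is not reported here. NFATC1, PLCG1, NCR1, NCR3, KLRK1, NCAM1 and TRGC2 were named after their values were seen. Members and lists were chosen with earlier results of these data known. TMM without the low-count libraries, ratios of probes above background and levels as shares of endogenous counts were added after seeing the data.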

Additional observations from a re-analysis of the deposited data

Results flagged for a closer look

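Of 24 sets of values tested, 1 for each gene or ratio in a group of 4 to 7 tumours, 3 held a tumour far from the others, where chance gives about 1 in 20. TwoDose_2d replicate A lay at -4.30 for the log2 ratio of CD247 to CD3E, beside -2.94 to -2.87 in the other 3. Untreated replicate B lay at 2.21 for TRGC3 (log2 of normalized count + 1), low among tumours that were all at background. Untreated replicate F lay at 4.77 for TRAT1, the highest of the 7 and the only one above background.

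In 2 cases a difference between treated groups was itself called. CD3G was lower in OneDose_8d than in OneDose_2d tumours (-1.66 log2), and TRGC3 was higher in TwoDose_2d than in OneDose_8d tumours (1.65 log2). Both calls were lost with TMM scaling. TRGC3 was above background in 2 of 4 TwoDose_2d and 1 of 3 OneDose_8d tumours, and the scaling lifts the background of TwoDose_2d replicate D to a normalized threshold of 338. The difference in TRGC3 is thus mostly one between background counts, in a gene whose selection leans on TwoDose_2d tumours. Without TRGC3, 0 of 7 members were called in that comparison.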

How the results depend on the processing

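Over the alternatives that leave out no single tumour, 481 fold changes of the members kept direction and side of the threshold, 11 passed only there, 32 no longer passed and 40 changed sign. Among nerve sheath tumours alone, 2 members were called in OneDose_2d and 0 in TwoDose_2d against untreated. Against OneDose_2d, OneDose_8d had 1 member called, 0 with TMM, DESeq2's size factors, background subtraction, sarcoma type as covariate, nerve sheath tumours, limma and TMM without the low-count libraries, 2 without those libraries and 3 with DESeq2. TwoDose_2d against OneDose_8d had 1, 0 with TMM, DESeq2's size factors, background subtraction, nerve sheath tumours, limma and without the low-count libraries under either scaling, and 7 with DESeq2. CD247 changed sign with TMM, DESeq2's size factors, background subtraction, limma and TMM without the low-count libraries: -0.19, -0.28, -0.63, -0.55 and -0.57 in OneDose_2d and -0.053, -0.13, -0.28, -0.30 and -0.35 in TwoDose_2d against untreated, 0.28, 0.31, 0.72, 0.68 and 0.71 in OneDose_8d against OneDose_2d, 0.14, 0.15, 0.34, 0.25 and 0.22 in TwoDose_2d against OneDose_2d, and -0.14, -0.16, -0.38, -0.44 and -0.49 in TwoDose_2d against OneDose_8d (-0.12 among nerve sheath tumours). TRAC reached -0.49 in OneDose_2d against untreated with TMM without the low-count libraries, and 0.70 in OneDose_8d against OneDose_2d (0.054 with DESeq2's size factors). In TwoDose_2d against OneDose_2d, TRAT1 was 0.093 (TMM), 0.058 (size factors) and 0.58 (limma). CD3E was -0.18 among nerve sheath tumours and -0.51 without the low-count libraries there, and LCK -0.23, -0.085 and, with limma, -0.12. The difference in CD247 over CD3E in TwoDose_2d was -2.96 without the low-count libraries and -2.42 among nerve sheath tumours, both no longer called. The cause of these changes was not tested.

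The replicate letters name different dogs, and same-letter tumours did not deviate together (r -0.21 to 0.38 over 19 pairs, other pairs -0.46 to 0.47). With the letter as a replicate block 6, 0 and 7 members were called in OneDose_2d, OneDose_8d and TwoDose_2d against untreated, 2 in OneDose_8d and 0 in TwoDose_2d against OneDose_2d, and 0 in TwoDose_2d against OneDose_8d. The block turned CD3D (-0.17), CD3E (-0.15) and LCK (-0.15) in TwoDose_2d against OneDose_2d.

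With each tumour left out in turn, members called ranged over 6 to 7 in OneDose_2d, 0 in OneDose_8d and 7 in TwoDose_2d against untreated, over 0 to 2 in OneDose_8d against OneDose_2d and over 0 to 5 in TwoDose_2d against OneDose_8d (5 without TwoDose_2d replicate A, 4 without C). CD247 ranged over -0.11 to 0.37 in OneDose_8d against untreated, -0.61 to 0.27 in TwoDose_2d against OneDose_2d and -0.067 to 0.68 between untreated wall and nerve sheath tumours, where CD3E ranged over -1.44 to 0.12. In TwoDose_2d against OneDose_2d, CD3E ranged over -0.16 to 0.84, LCK over -0.21 to 0.54 and TRAT1 over -0.62 to 0.094. The difference in CD247 over CD3E ranged over -2.96 to -1.64 in OneDose_2d, -1.76 to -1.18 in OneDose_8d and -3.06 to -2.49 in TwoDose_2d (call lost in 10 of 11 fits, since the smallest p is 0.00833 for 3 against 7 and 0.00476 for 4 against 6, which over 12 tests is 0.1 and 0.0571 for a lone result), and LCK over CD3E over -1.23 to -0.98 in TwoDose_2d. Without untreated replicate F, CD247 over CD3E in both single-dose groups and LCK over CD3E in TwoDose_2d were called.

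Signal near background is one limit: CD3D, CD247, TRGC3 and TRAT1 were not above it in most tumours of at least 1 group, and the low-count libraries measured 2 and 3 of the 8 members.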
